A study of Mus musculus with 8 samples.

Results

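The 8 protein-coding genes described here lie in a stretch of mouse chromosome 17: Zfp760, Pkmyt1, Amdhd2, Tbc1d24, Eme2, Unkl, Gnptg and Neurl1b. Their levels were followed in the cortex of 8 mice. They are 8 of the 22000 genes in the deposited count table and 8 of the 13879 genes tested. They were chosen by their measured levels: in edgeR's quasi-likelihood test the counts of each differed between libraries with higher and with lower numbers in the sample titles, so that difference is described below and not tested. All 8 passed the filter on low counts. Messenger RNA had been sequenced from the whole cortex of 4 mice labelled Mef2c heterozygous and 4 labelled Mef2c wild type, each genotype having 2 mice of either sex and 1 library per mouse. The labels give neither the Mef2c allele nor the strain or age of the mice. The title numbers fall into 2 runs. The higher run, called the second series here, held heterozygous replicates 3 and 4 and wild type replicates 3 and 4; the lower run, called the first series, held heterozygous replicates 1 and 2 and wild type replicates 1 and 2. Each series held 1 male and 1 female of either genotype, and the labels do not say what the numbers stand for.

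The genes have no common pathway; they are neighbours. Genes that lie close together on a chromosome are inherited together as a block, and a sequence difference that acts on the copy it sits on can give a level that follows the number of copies carried, in steps. The products of the group serve cell division and DNA repair (Pkmyt1, Eme2), sugar metabolism and the sorting of lysosomal enzymes (Amdhd2, Gnptg), ubiquitin signalling and synapses (Unkl, Neurl1b, Tbc1d24) and transcription (Zfp760). In GRCm38 coordinates the first of them, Zfp760, starts at 21707741 on chromosome 17 and the last, Neurl1b, ends at 26446349, a span of 4.74 Mb. Of the 8 genes, 4 lie on the minus strand (Amdhd2, Tbc1d24, Eme2, Gnptg). The files hold read counts and no sequence variants, so which copies of the stretch an animal carried was not analysed here.

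The starts of 4 of the genes are shown because in these genes the same pair of wild type libraries lay between the rest, as described below. RefSeq's promoter table (build GRCm38.p6) held 7 of the 8 genes, without Pkmyt1. It held 3 starts for Unkl and 2 each for Gnptg and Tbc1d24, and only 1 start per gene was used here. Each sequence runs 5′ to 3′ on the gene's strand, from 250 bases before the start to 50 bases after it, with every CG dinucleotide in capitals. They are from the reference strain and not from these mice.
Zfp760, chr17:21707491-21707790, plus strand: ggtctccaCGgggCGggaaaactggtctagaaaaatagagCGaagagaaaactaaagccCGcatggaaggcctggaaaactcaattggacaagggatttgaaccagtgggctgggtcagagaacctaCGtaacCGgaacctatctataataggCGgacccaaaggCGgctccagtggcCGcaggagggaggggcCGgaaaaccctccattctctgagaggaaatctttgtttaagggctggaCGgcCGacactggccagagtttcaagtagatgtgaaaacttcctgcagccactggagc
Eme2, chr17:24895038-24895337, minus strand: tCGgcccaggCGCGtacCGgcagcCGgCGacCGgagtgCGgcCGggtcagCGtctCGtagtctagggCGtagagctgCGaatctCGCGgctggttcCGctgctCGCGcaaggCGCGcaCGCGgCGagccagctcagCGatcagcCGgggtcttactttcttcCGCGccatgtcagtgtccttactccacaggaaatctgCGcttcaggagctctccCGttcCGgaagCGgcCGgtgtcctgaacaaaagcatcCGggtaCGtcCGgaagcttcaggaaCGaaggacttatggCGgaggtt
Unkl, chr17:25188147-25188446, plus strand: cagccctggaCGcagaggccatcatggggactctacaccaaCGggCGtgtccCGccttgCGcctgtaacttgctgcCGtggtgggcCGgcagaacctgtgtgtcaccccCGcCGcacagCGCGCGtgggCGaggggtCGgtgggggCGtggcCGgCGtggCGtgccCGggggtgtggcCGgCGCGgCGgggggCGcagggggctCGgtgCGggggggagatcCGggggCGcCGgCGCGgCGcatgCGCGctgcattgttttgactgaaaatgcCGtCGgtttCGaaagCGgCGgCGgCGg
Gnptg, chr17:25240067-25240366, minus strand: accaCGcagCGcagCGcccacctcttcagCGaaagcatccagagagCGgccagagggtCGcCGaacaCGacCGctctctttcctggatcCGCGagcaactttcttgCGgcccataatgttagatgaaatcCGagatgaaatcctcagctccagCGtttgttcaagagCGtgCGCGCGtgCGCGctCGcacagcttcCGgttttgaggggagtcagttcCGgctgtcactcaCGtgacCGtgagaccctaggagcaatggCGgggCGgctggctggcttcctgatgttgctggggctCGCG
The Unkl window held 41 CG dinucleotides, the Eme2 window 37, the Gnptg window 29 and the Zfp760 window 12, against a median of 7 over the 32851 promoters of the table. None of the 7 windows held the TATA box, searched as TATAAA on both strands, which 13.6% of all promoters held. The CCAAT box, searched as CCAAT on both strands, was in the windows of Zfp760, Amdhd2 and Neurl1b and in 37.4% of all promoters. The GC box GGGCGG, searched on both strands, was in the windows of Zfp760, Amdhd2, Tbc1d24, Gnptg and Neurl1b and in 35.7% of all promoters.

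Read totals lay between 16092773 and 17841377 per library, and RNA integrity numbers between 8.6 and 9. Levels are given as CPM, counts scaled to a common library total with TMM factors. Mef2c itself stood at 1304 ± 73.2 CPM in heterozygous and at 995 ± 41.3 CPM in wild type libraries (SD, n = 4 each). The gene was thus higher where the label names a heterozygote, and every genotype difference below refers to the labels. Summed markers of excitatory neurons of the cortex lay between 6622 and 7548 CPM in all libraries. The 6 endothelial markers summed to between 167 and 213 CPM in the second series and between 229 and 259 CPM in the first, with Pecam1, Ly6c1 and Abcb1a lower in the second series by edgeR's test. The 5 red blood cell markers summed to 35.2 to 73.7 CPM in the second series and 63.9 to 112 CPM in the first. None of these 5 was called, and in the other 10 of 12 marker lists Sst, of the inhibitory neurons, was the 1 gene called between the series, with a log2 fold change of 0.22. The part of these cell types in the values of the 8 genes was not tested. In whole tissue, fewer cells of a type and less RNA per cell cannot be told apart.

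Pkmyt1 and Eme2 act on dividing cells and broken DNA. Pkmyt1 (ENSMUSG00000023908.8, 23726336 to 23736735, plus strand) codes for a membrane-bound kinase that holds Cdk1 inactive before mitosis. It had 7.46, 5.77, 5.67 and 3.88 CPM in heterozygous replicates 3 and 4 and wild type replicates 3 and 4 of the second series, and 2.13, 2.67, 3.78 and 2.42 CPM in heterozygous replicates 1 and 2 and wild type replicates 1 and 2 of the first. The series did not overlap, but wild type replicate 4 of the second and wild type replicate 1 of the first were nearly level, at 64 and 65 reads. The exact 95% Poisson intervals of these libraries were 49.3 to 81.7 and 50.2 to 82.8 reads, so their difference was far within counting error, which is all these intervals cover. The lowest library, heterozygous replicate 1, had 36 reads (25.2 to 49.8) and the highest, heterozygous replicate 3, had 120 (99.5 to 143). Over the series the levels were 5.69 ± 1.46 CPM in the second and 2.75 ± 0.722 CPM in the first (SD, n = 4 each), a log2 fold change of 1.03 ± 0.23 (SE), second minus first. Exons of Pkmyt1 share 319 bases with the opposite-strand gene Paqr4, so reads of these bases are uncertain. Paqr4 had the higher level, at 74.96 ± 3.55 CPM in the second and 68.84 ± 4.07 CPM in the first series (SD, n = 4 each). The part of such reads in the Pkmyt1 counts was not tested.

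Eme2 (ENSMUSG00000073436.11, 24888486 to 24895087, minus strand) codes for a partner of the nuclease Mus81, which cuts branched DNA at stalled replication forks. Its level was 56.9, 56.9, 54.2 and 49.3 CPM in heterozygous replicates 3 and 4 and wild type replicates 3 and 4, and 40.4, 41.9, 47.7 and 40.7 CPM in heterozygous replicates 1 and 2 and wild type replicates 1 and 2. As in Pkmyt1, wild type replicates 4 and 1 stood next to each other in the middle. Second minus first, the log2 fold change was 0.35 ± 0.07 (SE). Exons of Eme2 share 1694 bases with the opposite-strand gene Spsb3 and 1557 bases with Mapk8ip3 on the same strand, so reads of these bases are uncertain. Spsb3 had a log2 fold change of 0.27 and Mapk8ip3 of 0.02, second minus first, and neither was called.

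Gnptg and Amdhd2 both act on N-acetylglucosamine. Gnptg (ENSMUSG00000035521.13, 25233331 to 25240124, minus strand) codes for a subunit of the enzyme that starts the mannose 6-phosphate tag of lysosomal enzymes. It had 63.5, 60.6, 60.8 and 54.5 CPM in heterozygous replicates 3 and 4 and wild type replicates 3 and 4, and 43.3, 46.4, 50.3 and 44.6 CPM in heterozygous replicates 1 and 2 and wild type replicates 1 and 2. Wild type replicate 4 was again the lowest of its series and wild type replicate 1 the highest of the other. Between the series, second minus first, Gnptg differed by 0.37 ± 0.07 (SE) on the log2 scale. Relative to exon length Gnptg was the most abundant of the 8 genes, at 23.6 CPM per kb, ahead of Neurl1b (11.7), Tbc1d24 (11.5), Eme2 (8.08), Zfp760 (3.71), Unkl (3.38), Amdhd2 (2.55) and Pkmyt1 (1.16). These values divide by all exon bases, also those shared with other genes, so they are uncertain for Gnptg, Unkl, Eme2 and Pkmyt1.

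Amdhd2 (ENSMUSG00000036820.12, 24155833 to 24163766, minus strand) codes for a deacetylase of N-acetylglucosamine 6-phosphate in the hexosamine pathway. Its level was 10.8, 12.7, 10.03 and 13.3 CPM in heterozygous replicates 3 and 4 and wild type replicates 3 and 4, and 6.69, 6.90, 7.80 and 6.28 CPM in heterozygous replicates 1 and 2 and wild type replicates 1 and 2. The series were apart by a factor of 1.29 at their nearest libraries, and here wild type replicate 4 was the highest of all 8 libraries and not in the middle. Second minus first, this gave a log2 fold change of 0.76 ± 0.13 (SE). The gene begins 99 bases downstream of the end of Atp6v0c, on the same strand.

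Unkl, Neurl1b and Tbc1d24 differed among themselves in how the libraries lay. Unkl (ENSMUSG00000015127.14, 25188397 to 25234443, plus strand) codes for a RING finger relative of Unkempt, a regulator of translation. It had 27.7, 26.6, 23.5 and 20.2 CPM in heterozygous replicates 3 and 4 and wild type replicates 3 and 4, and 13.3, 11.6, 18.5 and 11.7 CPM in heterozygous replicates 1 and 2 and wild type replicates 1 and 2. Of the libraries of the first series 3 lay within 2 CPM of each other, while wild type replicate 1 stood close to wild type replicate 4 of the second. Unkl had a log2 fold change of 0.83 ± 0.15 (SE), second minus first. Unkl and Gnptg run towards each other and share 1113 exon bases, 49.5% of the exon length of Gnptg. Since the strand setting of the counting is not given in the sources used here, reads of this overlap cannot be assigned to either gene.

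Neurl1b (ENSMUSG00000034413.14, 26414829 to 26446349, plus strand) codes for a ubiquitin ligase that drives the uptake of Notch ligands. Its levels were 81.1, 74.8, 87.2 and 83.3 CPM in heterozygous replicates 3 and 4 and wild type replicates 3 and 4, and 67.9, 59.8, 67.9 and 70.5 CPM in heterozygous replicates 1 and 2 and wild type replicates 1 and 2. The lowest of the second series was heterozygous replicate 4, and the lowest of the first was heterozygous replicate 2, while wild type replicates 4 and 1 did not stand in the middle. Tbc1d24 (ENSMUSG00000036473.16, 24175431 to 24205562, minus strand) codes for a protein of synaptic vesicle traffic that is mutated in human epilepsies. It had 111, 103, 110 and 103 CPM in heterozygous replicates 3 and 4 and wild type replicates 3 and 4, and 103, 84.2, 84.0 and 86.8 CPM in heterozygous replicates 1 and 2 and wild type replicates 1 and 2. Heterozygous replicate 1 thus lay with the second series, and Tbc1d24 was the gene of the 8 whose series overlapped. The log2 fold changes, second minus first, were 0.29 ± 0.06 (SE) for Neurl1b and 0.26 ± 0.06 (SE) for Tbc1d24.

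Zfp760 (ENSMUSG00000067928.6, 21707741 to 21725636, plus strand), a zinc finger protein gene, was the 1 gene of the 8 that was lower in the second series. Its levels were 12.1, 11.4, 10.9 and 13.2 CPM in heterozygous replicates 3 and 4 and wild type replicates 3 and 4, and 21.2, 18.2, 16.8 and 21.3 CPM in heterozygous replicates 1 and 2 and wild type replicates 1 and 2. The direction was turned round, yet wild type replicates 4 and 1 were once more the libraries nearest the opposite series. On the log2 scale the difference, second minus first, was -0.70 ± 0.11 (SE). Zinc finger genes of this stretch come in clusters of close copies, so reads could be split between them.

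**Figure D1:**
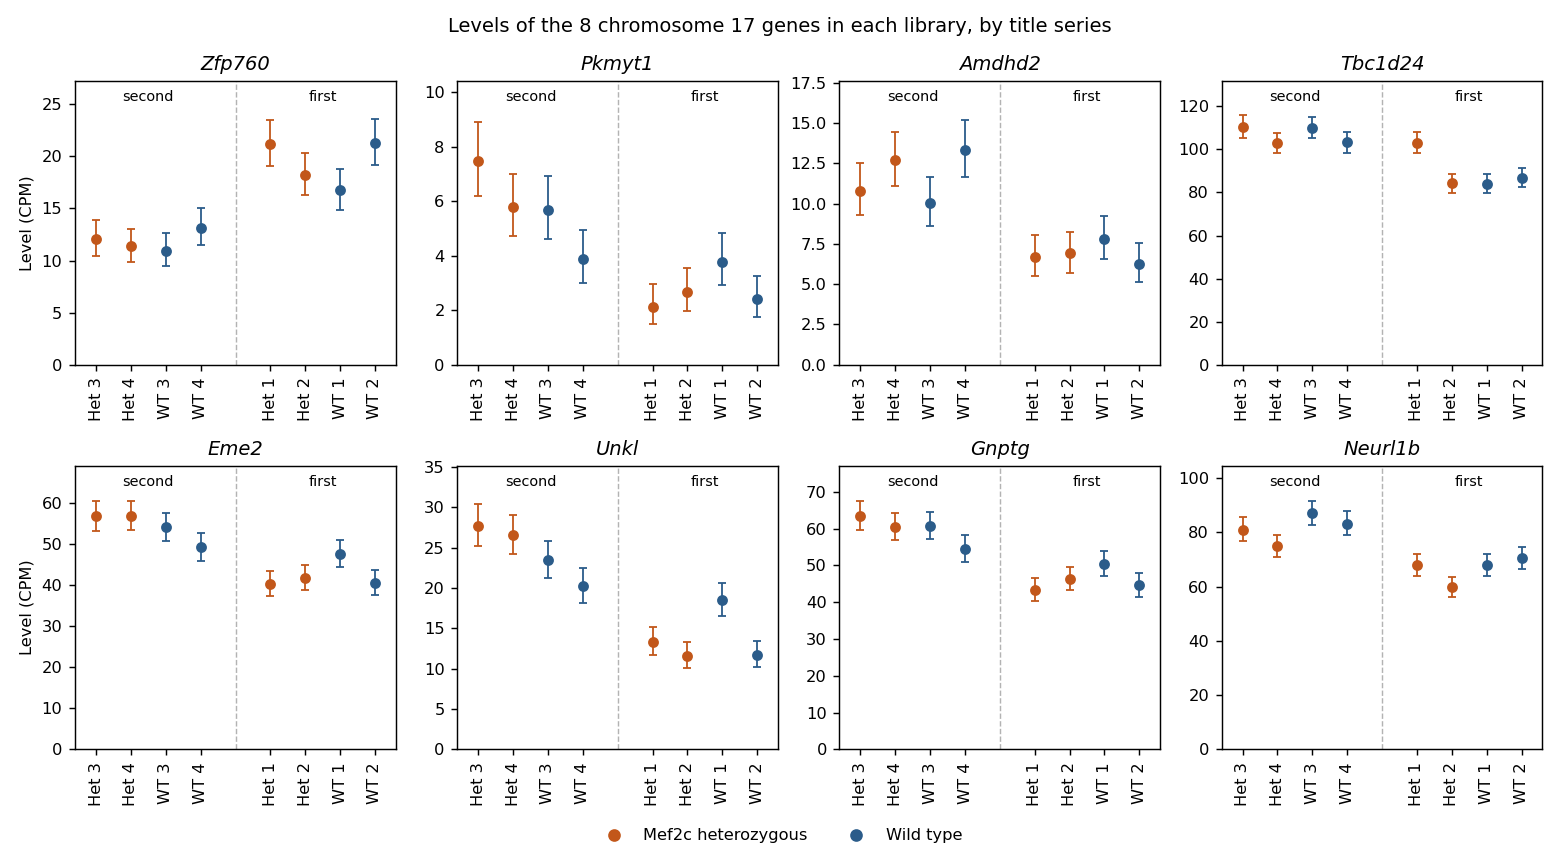
Level in CPM (y axis, from 0) of each gene in each library (x axis), with heterozygous libraries in orange, wild type libraries in blue and the second series left of the first. Bars are exact 95% Poisson intervals of the counts. In Pkmyt1, Eme2, Unkl and Gnptg, WT 4 is the lowest of the second series and WT 1 the highest of the first; Zfp760 runs the other way.

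Of the genes, 7 were thus higher and 1 was lower in the second series, with folds between 1.19 for Tbc1d24 and 2.05 for Pkmyt1 upwards and a 1.63-fold fall for Zfp760. All 8 were past an adjusted p of 0.05 in the contrast between the series, as were 0.382% of all genes tested (0.173% higher and 0.209% lower in the second series), and the series did not overlap in 7 of the 8, as in 5.46% of all genes; these counts follow from how the genes were chosen. With a library left out, 1 gene of the 8 was still called without heterozygous replicate 4, 2 without heterozygous replicate 3 or wild type replicate 2, 3 without wild type replicate 3, and 4 without heterozygous replicate 1 or 2. Without wild type replicate 1 or wild type replicate 4, 7 genes were still called. At the edge of that choice, Tbc1d24 had a log2 fold change of 0.26 and Tsc2, which was not past the threshold, one of 0.24. The choice did not follow the size of the difference. Genes of the stretch with larger log2 fold changes, such as Atp6v0c (2.24) and Rnps1 (1.24), were not past the threshold either.

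How the libraries lay within each series is given next, also as a description. In 5 of the 8 genes, Pkmyt1, Eme2, Unkl, Gnptg and Zfp760, the levels of wild type replicates 4 and 1 lay above those of 3 libraries and below those of the other 3. Placed on a log2 scale from 0% at the median of the first series to 100% at the median of the second, wild type replicates 4 and 1 stood at 52.1% and 49.1% for Pkmyt1, at 59.8% and 48.6% for Eme2, and at 69.5% and 56.6% for Unkl. The middle of this scale lies below the level midway between the medians in CPM, more so for larger folds. For Gnptg the positions of wild type replicates 4 and 1 were 62.5% and 35.1%, and for Zfp760 they were 77.5% and 30.7%. The other 6 libraries stood between 91.0% and 116% (second series) and between -17.0% and 9.13% (first series) for Eme2, Unkl and Gnptg. They were wider apart for Pkmyt1, at 99.0% to 133% and -21.6% to 6.06%, and for Zfp760 they stood at 94.3% to 113% and -15.6% to 14.7%. In Amdhd2, Tbc1d24 and Neurl1b the same wild type libraries stood at 124% and 25.2%, at 85.6% and -8.39%, and at 107% and -0.147%. Other libraries stood apart in these genes: in Neurl1b heterozygous replicate 4 was in the middle at 50.9% and heterozygous replicate 2 at -67.4%, and in Tbc1d24 heterozygous replicate 1 of the first series was at 84.5%. In Amdhd2 wild type replicate 3 of the second series was at 71.3%.

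**Figure D2:**
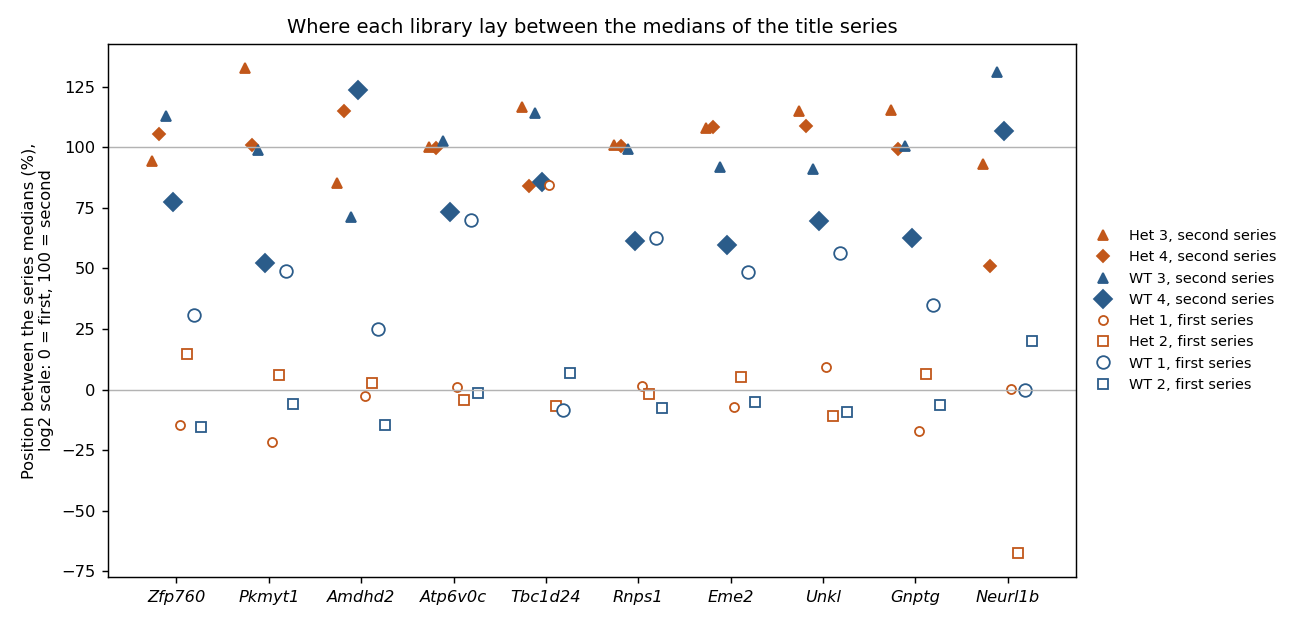
Position of each library (y axis, percent on a log2 scale, 0 at the first-series median and 100 at the second-series median) for the 8 genes and for Atp6v0c and Rnps1, in chromosome order (x axis). Filled symbols are the second series and open symbols the first. The large blue symbols, WT 4 and WT 1, lie between 30.7% and 77.5% for Zfp760, Pkmyt1, Eme2, Unkl, Gnptg, Atp6v0c and Rnps1, but not for Amdhd2, Tbc1d24 and Neurl1b.

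The spread within a series was larger than counting error in most of these genes. The same was not computed over all genes tested, so it is not shown to be particular to the 8. The chi-square per degree of freedom of the reads, which is about 1 for counting error alone, was 7.63 in the second and 13.1 in the first series for Unkl, 3.96 and 4.65 for Eme2, and 6.13 and 3.24 for Pkmyt1. It was lowest for Amdhd2 in the first series (1.03) and for Zfp760 in the second (1.33), and highest for Tbc1d24 in the first (15.6). For the same relative spread this value rises with the number of reads. Tbc1d24 had more reads than Amdhd2 or Zfp760 in every library. The highest library had 1.92 times the level of the lowest for Pkmyt1 within the second series and 1.77 times within the first.

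As a count over genes, wild type replicate 1 was the library of the first series nearest the second, and wild type replicate 4 that of the second nearest the first, in 5 of the 8 genes. The same held in 28 of the other 133 tested genes between 20 and 28 Mb of the chromosome (21.1%) and in 1114 of all 13879 genes (8.03%). These shares are descriptions, since the genes of a stretch are not independent.

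Atp6v0c, Rnps1 and Prss41 lie among the 8 and are given as picked examples. How many other genes of the stretch have levels in 3 steps was not counted. Atp6v0c, which codes for the proton-conducting ring subunit of the vacuolar ATPase, is the nearest neighbour of both Amdhd2 and Tbc1d24 (24163866 to 24169702, minus strand). It had 207, 205, 218 and 117 CPM in heterozygous replicates 3 and 4 and wild type replicates 3 and 4, and 25.1, 22.4, 109 and 23.8 CPM in heterozygous replicates 1 and 2 and wild type replicates 1 and 2. Levels thus fell into 3 steps, with wild type replicates 4 and 1 in the middle, and the highest library had 9.75 times the level of the lowest. Counts behind these levels were large, from 386 to 3811 reads. How reads were assigned was not examined for Atp6v0c, Rnps1 or Prss41, so steps in their counts need not be steps in RNA. Second minus first, Atp6v0c had a log2 fold change of 2.24 ± 0.71 (SE), and its adjusted p, 0.429 by edgeR, missed the threshold.

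Rnps1 codes for an RNA-binding protein of the exon junction complex (24414565 to 24425901, plus strand). It was the 1 gene of chromosome 17 among the 5 genes outside the group whose levels were most like the group's mean profile, with Pearson r = 0.97 over the 8 libraries. Its levels were 141, 140, 139 and 89.7 CPM in heterozygous replicates 3 and 4 and wild type replicates 3 and 4, and 45.4, 43.7, 90.9 and 40.8 CPM in heterozygous replicates 1 and 2 and wild type replicates 1 and 2. Wild type replicates 4 and 1 differed by about 1 CPM, while each stood about 50 CPM from the rest of its own series. The other genes most like the profile lay on other chromosomes and moved less, with log2 fold changes, second minus first, of -0.22 for Ldlrad4 (r = -0.99), -0.38 for Nbeal1 (r = -0.98), 0.19 for Cdk4 (r = 0.98) and -0.12 for Slc30a9 (r = -0.97). Each r also holds the difference between the series that chose the 8 genes. It holds as well the middle place of wild type replicates 1 and 4 in the mean profile (-0.094 and 0.154). None of these 5 genes was called in the contrast between the series.

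Prss41, a serine protease gene (23836785 to 23844172, minus strand), was singled out after its values were seen. It had 0, 0, 0 and 11 reads in heterozygous replicates 3 and 4 and wild type replicates 3 and 4, and 29, 20, 7 and 22 reads in heterozygous replicates 1 and 2 and wild type replicates 1 and 2. A count of 0 allows up to 3 reads, or 0.186, 0.168 and 0.172 CPM in heterozygous replicates 3 and 4 and wild type replicate 3. The libraries with intermediate counts were again wild type replicates 4 and 1, and as in Zfp760 the first series was the higher.

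**Figure D3:**
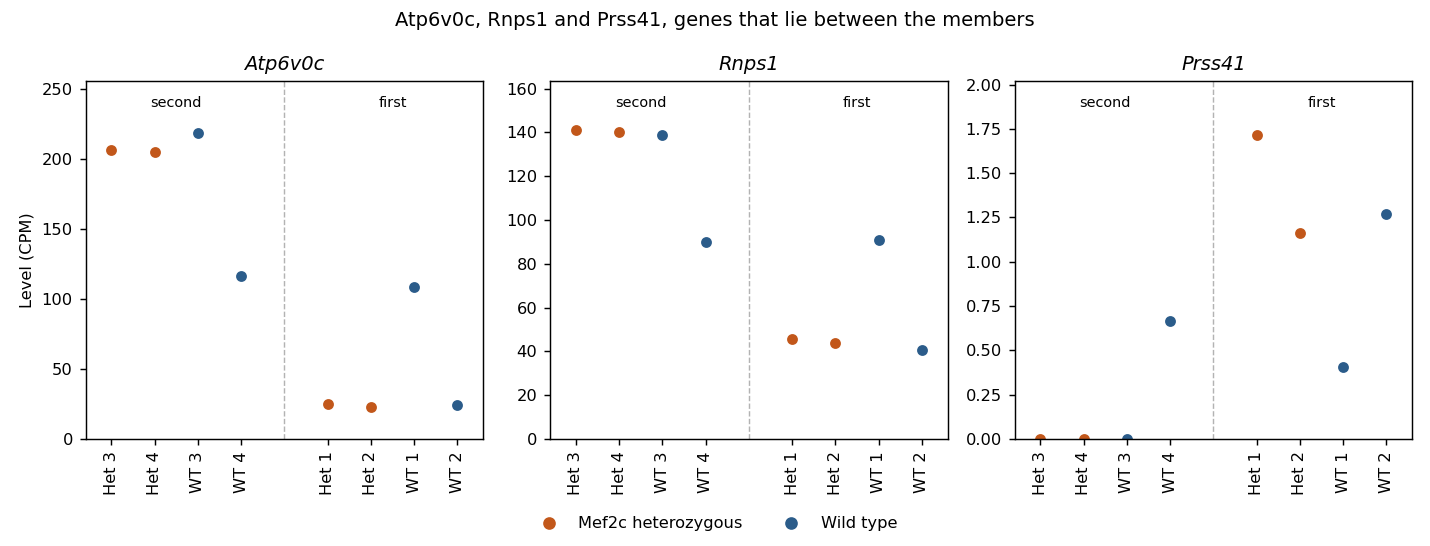
Level in CPM (y axis, from 0) of Atp6v0c, Rnps1 and Prss41 in each library (x axis), with heterozygous libraries in orange and wild type libraries in blue, the second series left of the first. For Atp6v0c, WT 4 at 117 CPM and WT 1 at 109 CPM stand between 3 libraries above 200 CPM and 3 below 26 CPM.

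Apart from Atp6v0c and the pair Unkl and Gnptg, the nearest tested neighbours had log2 fold changes, second minus first, between -0.32 and 0.27, and none of them was called. The nearest tested genes of Zfp760 were Gm10226 and Zfp229, at -0.13 and 0.08. Those of Pkmyt1 were Tnfrsf12a (-0.32) and Paqr4 (0.12), and those of Eme2 were Spsb3 (0.27) and Mrps34 (0.24). Pdpk1 (0.02), on the other side of Amdhd2, Ccnf (-0.02) beside Tbc1d24, BC003965 (0.11) beside Unkl, Tsr3 (0.10) beside Gnptg and Luc7l (-0.01) and Dusp1 (-0.13) beside Neurl1b completed the set. Between Pkmyt1 and Gnptg, both included, 53 tested genes lie within 1.51 Mb.

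Over the stretch from 20 to 28 Mb 141 genes were tested, and the 8 genes are all those of them that were called between the series, which follows from how they were chosen. Of the other 133 genes 80 had a log2 fold change above 0, with a median of 0.06, against 50.9% and a median of 0.002 over all genes tested. Their absolute log2 fold change had a median of 0.11, against 0.08 over all genes. Without the 8 genes, 48 of 67 tested genes were above 0 in the window from 24 to 26 Mb, 16 of 34 in that from 26 to 28 Mb and 10 of 19 in that from 22 to 24 Mb. In the window from 20 to 22 Mb, which holds Zfp760, 6 of the other 13 tested genes were above 0. Elsewhere on chromosome 17, 3 of 491 tested genes were called between the series.

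**Figure D4:**
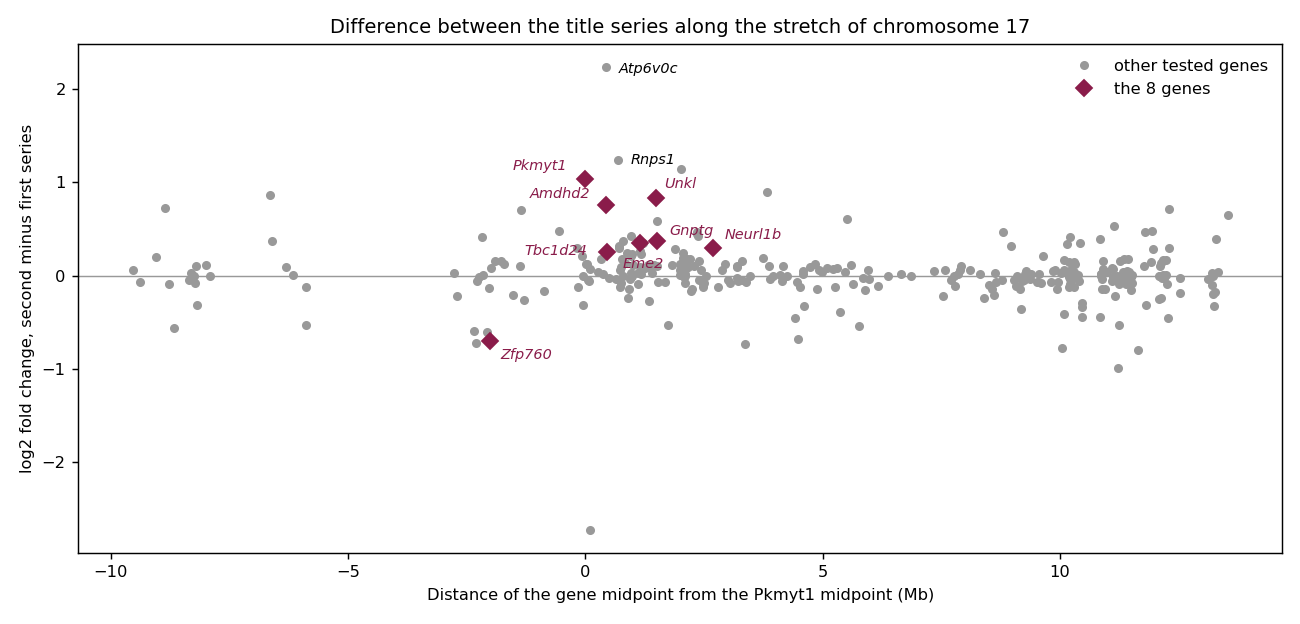
The log2 fold change between the series, second minus first (y axis), of tested genes against the distance of their midpoint from that of Pkmyt1 in Mb (x axis). Diamonds are the 8 genes and grey points the other genes; 7 diamonds lie above 0 and Zfp760 below, while Atp6v0c at 2.24 and Rnps1 at 1.24 lie higher than any diamond. The lowest grey point is Prss41, whose fitted value depends on the prior count since 3 of its libraries had 0 reads.

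The comparison of the genotypes, which was not used to choose the genes, asked whether their levels differ with Mef2c genotype. With sex and series as terms, edgeR called none of the 8, against 0.519% of all genes tested (72 of 13879). Neurl1b was the 1 gene of the 8 with an unadjusted p under 0.05, against 8.56% of all genes. Neurl1b had 70.9 ± 9.17 CPM in heterozygous and 77.2 ± 9.44 CPM in wild type libraries (SD, n = 4 each). This came to a log2 fold change of -0.12 ± 0.06 (SE; adjusted p = 0.545 by edgeR), with -0.13 in the second and -0.12 in the first series. The next largest was that of Pkmyt1, at 0.10 ± 0.23 (SE), with 4.51 ± 2.54 CPM in heterozygous and 3.94 ± 1.33 CPM in wild type libraries (SD, n = 4 each). The other 6 genes lay between -0.01 for Amdhd2 and 0.06 for Tbc1d24. Standard errors ran from 0.06 to 0.23, so for Pkmyt1 and Unkl only large differences could have been seen.

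The genotype difference pointed to opposite sides in the series for the genes with intermediate wild type libraries. Pkmyt1 had a log2 fold change, heterozygous minus wild type, of 0.46 in the second series and -0.37 in the first. Unkl had 0.31 and -0.28, Eme2 0.14 and -0.10, and Gnptg 0.10 and -0.08 in the second and the first series. Zfp760 had -0.04 and 0.05. These signs largely restate where wild type replicates 4 and 1 lay. Of the genes without intermediate wild type libraries, Amdhd2 also changed sign, at 0.02 and -0.04, and Tbc1d24 and Neurl1b did not. Both intermediate libraries were labelled wild type, 1 in either series, and both were female. No other wild type library was female. The middle place of these libraries therefore cannot be told apart from this combination of genotype and sex. No fit had a genotype by sex term, so that combination was not tested. None of the 8 genes was called for a difference between the series in the genotype effect, against 0.00721% of all genes (1 gene). Unkl alone had an unadjusted p under 0.05, as did 4.09% of all genes, at 0.0275 before and 0.999 after adjustment by edgeR.

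**Figure D5:**
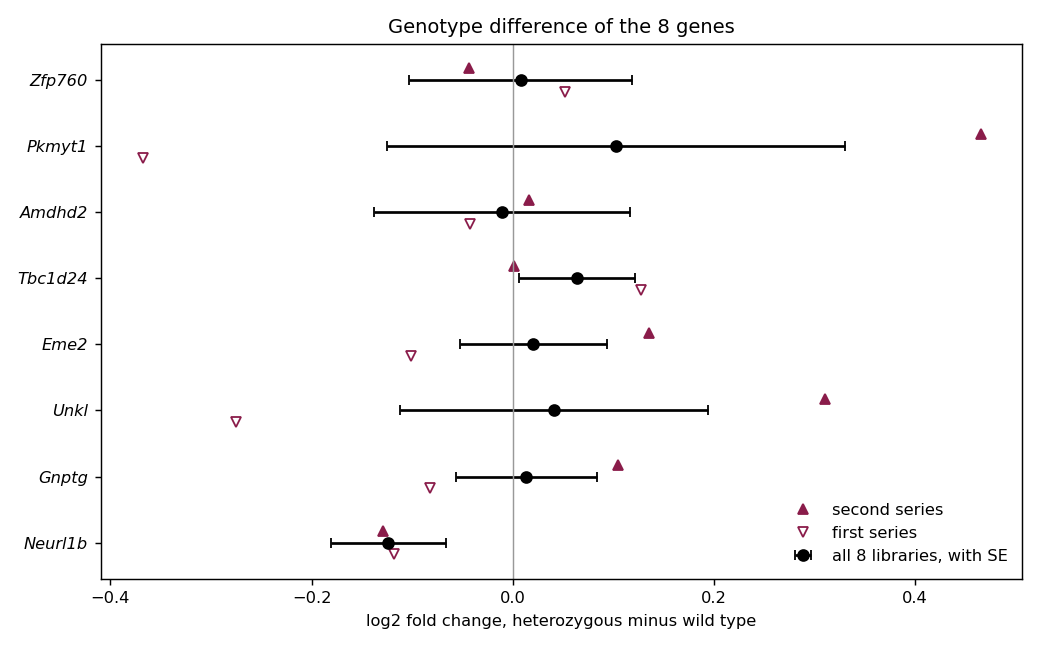
The log2 fold change, heterozygous minus wild type (x axis), of the 8 genes in chromosome order (y axis). Black points with bars are the estimate from all 8 libraries and its SE; filled triangles are the second series and open triangles the first. The black points lie between -0.12 and 0.10, and for Pkmyt1 the series lie at 0.46 and -0.37.

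The comparison of the sexes called none of the 8 genes, against 0.0216% of all genes tested (3 genes). The largest difference was that of Amdhd2, with 8.45 ± 2.30 CPM in males and 10.2 ± 3.30 CPM in females (SD, n = 4 each), a male minus female log2 fold change of -0.26 ± 0.13 (SE). Tbc1d24 had 103 ± 11.03 CPM in males and 93.6 ± 10.9 CPM in females (SD, n = 4 each), a log2 fold change of 0.13 ± 0.06 (SE), and an unadjusted p of 0.0277 that did not pass adjustment (0.9998 by edgeR). It was the 1 gene of the 8 under 0.05 before adjustment, against 3.82% of all genes. The other 6 genes lay between -0.05 and 0.11.

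Partners of the 8 genes were taken from 8 lists. No gene was called for genotype, sex, series or their interaction among 15 tested genes of the hexosamine and sialic acid pathway, 16 of mannose 6-phosphate sorting, 13 of structure-specific nucleases, 8 of entry into mitosis, 17 of Notch signalling, 13 of TLDc proteins and vesicle endocytosis, 11 Unkempt-related RNA regulators and 26 KRAB zinc finger genes and cofactors. With 0.519% of all genes called for genotype, 0.382% for series and fewer for the others, lists of this size would hold few calls or none at the share over all genes. Median log2 fold changes between the genotypes, heterozygous minus wild type, lay between -0.01 (Notch) and 0.06 (KRAB zinc fingers), against -0.001 over all genes. Between the series, second minus first, the medians lay between -0.09 (Unkempt-related) and 0.01 (hexosamine). Some lists are not separate from the stretch. The list of TLDc proteins and vesicle endocytosis holds Atp6v0c, at 2.24. That of KRAB zinc fingers holds genes of the stretch, among them Zfp758 at 0.71 and Zfp54 at -0.73. Among the most abundant listed genes, Ctsb, a lysosomal protease gene sorted by the tag that Gnptg helps to make, had 573 ± 12.8 CPM in heterozygous and 560 ± 18.2 CPM in wild type libraries (SD, n = 4 each). Neurl1a, the closest relative of Neurl1b, had 222 ± 4.17 CPM in heterozygous and 230 ± 11.6 CPM in wild type libraries. Wee1, the other kinase that restrains Cdk1, had 30.3 ± 2.61 CPM in heterozygous and 33.8 ± 3.05 CPM in wild type libraries (SD, n = 4 each).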

How the data were processed

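The deposited values are whole-number counts of reads per gene symbol that the authors left unnormalised, as far as the values show. The submitters' processing notes name STAR 2.5.2b, HTSeq and the build mm10, and say nothing of annotation, strand or filters. Rows were matched by symbol to GENCODE release M21 (GRCm38; 19642 of 22000 rows).

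Low counts were removed with filterByExpr (by genotype, minimum count 10), which left 13879 genes, and libraries were scaled by TMM. A robust quasi-likelihood fit in edgeR 4.0.16 (R 4.3.3) had sex, title series and genotype as terms with Benjamini-Hochberg adjustment over all genes, called under 0.05; a further fit added the genotype by series interaction. The series term keeps the difference that chose the 8 genes out of the replicate spread. Profile correlations used log2 CPM with a pseudocount of 0.5. The 8 genes and the lists were chosen with earlier results of these data known. Named genes are the 8, their nearest tested neighbours, called genes of the stretch and the 5 most like the group's profile. Of the listed genes, the called or 2 most abundant were taken, and examples are printed. Named outside this rule are Prss41, Tsc2 (at the edge of the choice), Mapk8ip3 (overlapping Eme2), and Zfp54 and Zfp758 (listed genes of the stretch). The fit was first tested on simulated counts. Of 50 genes changed 1.25-fold in a contrast, the fit called 30 for genotype and 23 for series. Of 50 changed 2-fold it called 45 in either contrast. Beyond the changed genes it called 6 for genotype, 11 for series and 0 for sex, so small differences could be missed. Alternatives used DESeq2 (1.42.0) size factors or Wald test, limma-voom (limma 3.58.1), other scaling, filters and covariates, and each library left out. The mice were separate per the labels, with 1 library each. Intervals cover counting error only.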

Additional observations from a re-analysis of the deposited data

Results flagged for a closer look

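Tbc1d24 in heterozygous replicate 1 stood apart from the rest of the first series, at 103 CPM against 84.0 to 86.8 CPM in the other 3 libraries, a gap of 0.849 of the range of that series, past Dixon's 95% critical value for 4 libraries. Groups by genotype and by series were examined for the 8 genes, 32 groups in all, and chance flags about 1 in 20 groups. Without this library the log2 fold change of Tbc1d24, second minus first, was 0.31.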

How the results depend on the processing

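None of the 8 genes was called for genotype or sex under any alternative run, and the sign of every second minus first difference was kept in all of them. The genes past the threshold between the series numbered 8 except with limma-voom (5), without sex (7) and with a library left out (1 to 7). Left-out libraries gave 35 to 80 genotype calls (72 with all 8; 44, 40, 40, 43 and 35 without wild type replicates 1 to 4 and heterozygous replicate 4), 2 to 6 sex calls (3; 6 without heterozygous replicate 4), 11 to 77 series calls (53; 23, 27, 17 and 11 without heterozygous replicates 1 to 4) and 0 to 7 interaction calls (1; 0 without heterozygous replicate 4 and 7 without wild type replicate 3). Genotype calls were 37 without the series as a term and, in a fit added after seeing the data, 124 with each sex and series cell as a block. Sex calls were 6 with the DESeq2 Wald test and 6 with limma-voom. Series calls were 95 without a filter, and interaction calls were 14 without a filter, 4 with DESeq2, 3 with limma-voom and 2 without sex as a term.

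Small genotype differences changed sign with a left-out library. The log2 fold change, heterozygous minus wild type, ranged from -0.065 to 0.11 for Zfp760, -0.13 to 0.37 for Pkmyt1, -0.060 to 0.043 for Amdhd2, -0.051 to 0.10 for Eme2, -0.095 to 0.27 for Unkl and -0.051 to 0.080 for Gnptg; for Pkmyt1, Eme2, Unkl and Gnptg the low end was without wild type replicate 4 and the high end without wild type replicate 1. Male minus female, it ranged from -0.21 to 0.29 for Pkmyt1, -0.11 to 0.042 for Eme2, -0.19 to 0.17 for Unkl and -0.075 to 0.056 for Gnptg, and that of Gnptg was 0.0029 with the series not a term. Without wild type replicate 1, Unkl had a second minus first log2 fold change of 1.07 and Pkmyt1 of 1.31. Depth limits Pkmyt1 most, at 36 to 120 reads a library. By replicate number, no paired analysis was possible because the labels give no such numbers that the genotypes share. Those used here only name libraries. Sex and series cells hold 1 mouse of either genotype and could serve as blocks. With these cells as a block no gene of the 8 was called for genotype (lowest adjusted p 0.413 for Neurl1b by edgeR).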
